A study of Mus musculus with 20 samples.

Results

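The miRNA profile of the mouse lung was described from 4 lung arrays set against the 16 arrays of liver, kidney, heart and spleen, out of 20 arrays in all. The lung arrays were chosen by the tissue named in the labels and in the table headers, not by any measured value. 2 of them came from klotho(-/-) mice and 2 from wild-type littermates, and each of the other tissues likewise held 2 klotho(-/-) and 2 wild-type arrays. All mice were 5-week-old males without treatment. The klotho(-/-) mouse lacks a membrane protein needed for normal mineral balance and is used as a model of early ageing, and the deficiency is that of the whole animal and not of the lung alone. By the study's legend the arrays of a group were different mice, so every lung value rests on 4 animals. The p-values rest on a spread pooled over all 20 arrays in a model of tissue and genotype, not on that of the lung arrays alone. Dye-labelled small RNA was hybridized to a chip that carries probes for 200 mouse miRNAs, and the brightness of a probe was the measurement.

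miRNAs are short RNAs that guide Argonaute proteins to messenger RNAs and lower their stability and translation. Pairing rests mostly on the seed, bases 2 to 8 from the 5′ end, so that miRNAs with one seed can share targets. The lung holds a dense capillary bed, airways lined with multiciliated and secretory epithelium, alveolar epithelium, fibroblasts, smooth muscle and many resident leukocytes, and several miRNAs are known for one of these cell types. In RNA from a whole tissue, fewer cells of a type and less of a miRNA per cell cannot be told apart.

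The lung arrays were brighter than those of the other tissues, with an overlap with heart. The summed deposited signal, which is the intensity after the authors' background subtraction, was 25953 to 57568 on the lung arrays, against 4162 to 10784 on liver, 13158 to 24080 on kidney, 21214 to 31237 on heart and 7317 to 12405 on spleen arrays. Arrays were therefore quantile-normalized, which gives all 20 the same set of values, and the differences below are relative to the other probes of the chip. A miRNA called lower in lung had a lower normalized level there than the mean of the other tissues. It could still be above some of them, or have a brighter spot. The 4 lung arrays were alike, with Pearson's r of 0.986 to 0.995 over the 200 log2 values of a pair and a median SD of 0.035 on the log2 scale, against 0.038 in kidney, 0.056 in heart, 0.076 in liver and 0.13 in spleen. On the lung arrays 107 probes had a deposited signal of at least 10 on all 4, and 75 were under 10 on all 4. The klotho(-/-) Spleen arrays stood apart from one another. On klotho(-/-) Spleen 1 the deposited signal of miR-375, a miRNA of endocrine cells, was 130, against at most 15 on any other array, and the miR-200 family was also brighter there than on the other spleen arrays. The defining miRNAs of the other tissues were where the labels put them. miR-122a was at 1625 to 4196 on liver arrays and at most 11 elsewhere, miR-1 was at 2827 to 3832 on heart arrays and at most 235 elsewhere, and miR-142-3p was highest on the spleen arrays in normalized signal.

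Most of the miRNAs that stood above each other tissue, with 2 that share a seed with one of them (miR-34a and miR-195), are shown first, since the comparison turns on them. The sequences are the mature mouse miRNAs of RefSeq on build GRCm38.p6, 5′ to 3′, with the seed in capitals, matched to the names on the chip. miR-126-3p (chr2:26591402-26591423, plus strand) and miR-34b (chr9:51103610-51103632, minus strand) had the widest differences on the log2 scale used below. miR-34a (chr4:150068473-150068494, plus strand) has the seed of miR-34b.
miR-126-3p: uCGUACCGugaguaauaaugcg
miR-34b: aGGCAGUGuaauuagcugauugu
miR-34a: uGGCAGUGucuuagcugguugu
miR-181a: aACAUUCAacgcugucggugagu
miR-497: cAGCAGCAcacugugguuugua
miR-195: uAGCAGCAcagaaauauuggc
miR-23a: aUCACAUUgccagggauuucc
let-7e: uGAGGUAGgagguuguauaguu
miR-153: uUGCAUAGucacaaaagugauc

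The miR-200 family, which marks epithelium, carries a pair of seeds, and each seed is found once in a gene pair on chromosome 4 and once in a gene pair on chromosome 6. The sequences are shown because the calls of lung against kidney followed the gene pairs and not the seeds.
miR-200a: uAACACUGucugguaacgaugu
miR-141: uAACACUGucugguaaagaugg
miR-200b: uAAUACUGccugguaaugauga
miR-200c: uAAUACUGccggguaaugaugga

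The miRNAs lowest in lung against the mean of the other tissues included miR-194 (chr1:185313325-185313346 and chr19:6264658-6264679, plus strand, with the same mature sequence), its neighbour miR-192, miR-296 (chr2:174267093-174267113, minus strand), miR-409 (chr12:109743204-109743225, plus strand) and miR-22 (chr11:75463772-75463793, plus strand). No seed was shared among them.
miR-194: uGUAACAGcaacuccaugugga
miR-192: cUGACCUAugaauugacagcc
miR-296: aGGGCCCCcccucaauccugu
miR-409: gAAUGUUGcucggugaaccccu
miR-22: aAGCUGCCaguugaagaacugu

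The first comparison asked which miRNAs were rich or poor in lung against the mean of liver, kidney, heart and spleen, with each tissue weighted alike and genotype as a covariate. Of 200 probes, 39 were higher in lung (19.5%) and 33 were lower (16.5%) by limma at an adjusted p under 0.05. Of the called miRNAs 24 differed by under 0.3 on the log2 scale. Without klotho(-/-) Spleen 1, 44 were higher and 43 lower, and without both klotho(-/-) Spleen arrays 44 and 49. 3 miRNAs were higher by over 1 on the log2 scale (1.5%), namely miR-126-3p, miR-34b and miR-34c, and 3 were lower by over 1 (1.5%), namely miR-194, miR-122a and miR-296. The median difference over all 200 probes was -0.026. The split between higher and lower calls moved with the scaling between arrays. It was 32 higher to 48 lower with median scaling, and 108 higher to 7 lower with no scaling, where the median of all probes was 0.143 and 11 of the miRNAs called after quantile normalization were called the other way.

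**Figure D1:**
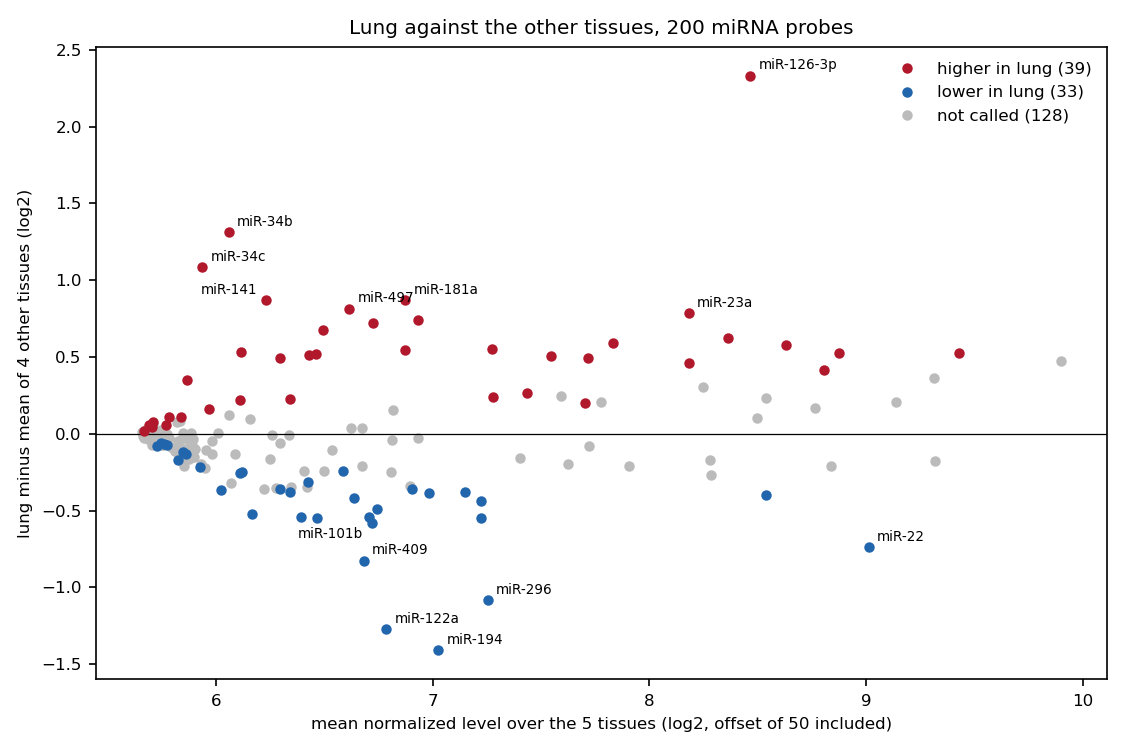
Each point is 1 of 200 miRNA probes, with its mean normalized level over the 5 tissues (log2, with the offset of 50) on the x axis and the difference of lung minus the mean of the 4 other tissues (log2) on the y axis. The 39 probes called higher are red and the 33 called lower are blue, and miR-126-3p stands alone at 2.33.

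The second comparison asked which miRNAs stood at an end of the order of tissues, by separate tests of lung against each other tissue. 9 miRNAs were above each other tissue (4.5%), namely miR-126-3p, miR-126-5p, miR-34b, miR-34c, miR-181a, miR-497, miR-23a, let-7e and miR-153. 17 more of the 39 were above 3 of the other tissues. Between arrays, normalized signal was higher on all 4 lung arrays than on all 16 others for 9 of 200 probes (4.5%). In deposited signal, which was brighter on the lung arrays, this held for 36 (18%). Without klotho(-/-) Spleen 1, 12 miRNAs were above each other tissue. With median scaling 6 miRNAs remained above each other tissue, and miR-23a, let-7e and miR-153 did not. Those 6 also remained when each array was left out in turn and with klotho(-/-) arrays alone. With wild-type arrays alone miR-126-5p was no longer above each other tissue. Its normalized signal was 15.8 on wild-type Lung 2 and 15.7 on wild-type Heart 2. miR-153 was dim, with a deposited signal of 6, 6, 6 and 4 on the lung arrays, against 1 to 4 elsewhere, and it was no longer above each of them without klotho(-/-) Lung 1 or 2, wild-type Lung 1 or klotho(-/-) Heart 2. No miRNA was below each other tissue (0%), and at an unadjusted p under 0.05 miR-210 alone was. It was called there with an offset of 16 or the replicate block, while median scaling called miR-185 and miR-29b.

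**Figure D2:**
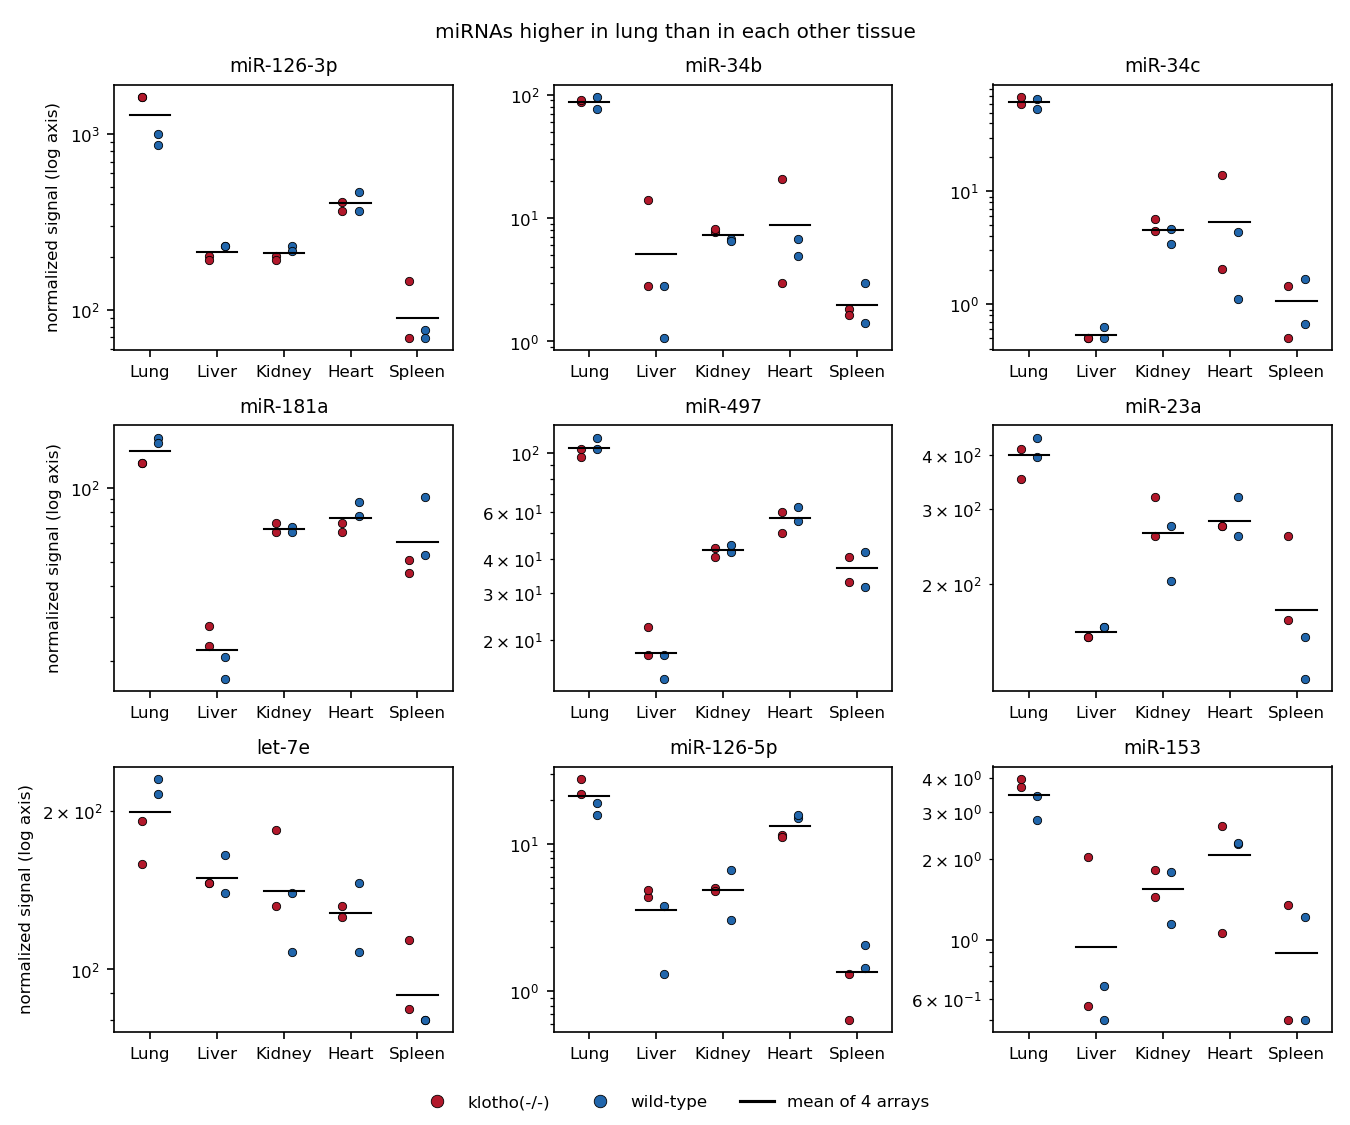
Normalized signal (log axis) of the 9 miRNAs above each other tissue, on the 4 arrays of each tissue, with klotho(-/-) arrays in red, wild-type arrays in blue and the mean of 4 arrays as a bar. For miR-126-3p the lung arrays lie at 866 to 1640 and no other array is above 470, while for let-7e the lung arrays begin at 159 and overlap kidney and liver.

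miR-126 is a miRNA of endothelial cells, made from an intron of Egfl7 and needed for stable vessels, and its 3p arm had the largest difference of the 200 probes. The deposited signal of miR-126-3p was 3435 and 2934 on klotho(-/-) and 2765 and 1494 on wild-type lung arrays. On heart arrays it was 749 and 518 in klotho(-/-) and 555 and 583 in wild-type mice, and on kidney arrays 325 and 261 in klotho(-/-) and 195 and 215 in wild-type mice. Every lung array was above every other array, and liver and spleen arrays were all under 100. After normalization the lung arrays had 1640, 1640, 866 and 1000, where 1640 is the top value that the scaling can give. The other 16 arrays had a lowest value of 69.2, a median of 209 and a highest value of 470. The difference of lung minus the mean of the other tissues was 2.33 ± 0.14 on the log2 scale (SE, adjusted p = 7.78e-10 by limma). Lung was 1.50 above heart, 2.29 above liver, 2.31 above kidney and 3.23 above spleen. Among the others heart was above liver, kidney and spleen, liver and kidney were above spleen, and liver and kidney differed by 0.02 (adjusted p = 0.98).

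The 5p arm is cut from the same hairpin and went the same way at a lower brightness. miR-126-5p had a deposited signal of 87 and 57 on klotho(-/-) and 62 and 24 on wild-type lung arrays, against a lowest value of 1, a median of 2 and a highest value of 17 on the 16 others. The difference was 0.35 ± 0.034 on the log2 scale (SE, adjusted p = 4.45e-07), and it was smallest against heart, at 0.16 (adjusted p = 0.00916). Both miRNAs of the endothelium list were higher in lung, against 19.5% of all probes, with a median difference of 1.34, against -0.026 over all probes. They were also higher with median scaling (median 1.06) and with no scaling (2.23). Because 50 was added to each signal before log2, differences of dim probes are drawn toward 0, so the values of the 2 arms cannot be set against each other.

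miR-34b and miR-34c are made from one transcript and are known, with miR-449, for the formation of motile cilia in the airway. They had the next largest differences, and outside lung they were near the floor of the chip. The deposited signal of miR-34b was 235 and 237 on klotho(-/-) and 209 and 118 on wild-type lung arrays, against a lowest value of 1, a median of 3 and a highest value of 17 on the other arrays. That of miR-34c was 195, 190, 170 and 91 in the same order, against 1, 2 and 12. The dimmest lung array was thus far above the brightest array of any other tissue, which was klotho(-/-) Heart 2 for both. The differences were 1.31 ± 0.065 for miR-34b (SE, adjusted p = 3.66e-11) and 1.09 ± 0.045 for miR-34c (SE, adjusted p = 3.77e-12), and against single tissues they ran from 1.24 to 1.41 and from 1.02 to 1.15. No pair of the other 4 tissues passed the test for either miRNA, with a smallest adjusted p of 0.112 for miR-34b and 0.08 for miR-34c. The median of both was 1.20 with quantile normalization and with median scaling.

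The third member of the miR-34 family did not have this pattern. miR-34a, which is induced by p53 in many cell types, has the seed of miR-34b. Its deposited signal was 82 and 78 on klotho(-/-) and 101 and 47 on wild-type lung arrays, and its normalized signal was 25.8 to 34.5 in lung, against 51.3 to 80 in kidney. Lung minus the mean of the others was -0.0066 (adjusted p = 0.946), and lung was below kidney by -0.47 (adjusted p = 0.00177). The hairpins of miR-34b and miR-34c lie 451 bases apart on chromosome 9, at chr9:51103562-51103645 and chr9:51103034-51103110 on the minus strand, and that of miR-34a lies on chromosome 4. Of the 3 family members 2 were higher (against 19.5% of all probes) and 1 was not called.

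All 4 miRNAs of the miR-200 family on the chip, which hold epithelial identity by repressing the Zeb transcription factors, were higher in lung than the mean of the other tissues, also with median scaling and with no scaling. Of all probes 19.5% were higher, and the median of the family's differences was 0.604. The family set lung and kidney against heart, where the deposited signal of all 4 was 6 or less, and it did not set lung above kidney. miR-200a had a normalized signal of 72.2 and 76.9 on klotho(-/-) and 84.1 and 91.3 on wild-type lung arrays, against 151, 165, 173 and 173 on kidney arrays. miR-200b had 60.1 to 69.2 in lung and 114 to 132 in kidney. The groups did not overlap, and lung was below kidney by -0.72 for miR-200a (adjusted p = 0.000266) and by -0.56 for miR-200b (adjusted p = 0.0174). For miR-141 the lung arrays had 69.2, 62.5, 72.2 and 84.1 and the kidney arrays 58.5, 69.2, 60.1 and 80, a difference of 0.06 (adjusted p = 0.902). For miR-200c it was -0.09 (adjusted p = 0.788).

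The miRNAs that were lower in lung than in kidney thus form one gene pair and those that did not pass form the other, and the difference between the pairs was not tested. Mir200a and Mir200b lie 695 bases apart on chromosome 4, and Mir141 and Mir200c lie 336 bases apart on chromosome 6. By seed, in contrast, miR-200a goes with miR-141 and miR-200b with miR-200c, and the members of each such pair differ at 2 of 22 bases, so that one probe may also bind the other miRNA. Against liver, heart and spleen all 4 were higher in lung, by 0.58 to 1.32. klotho(-/-) Spleen 1 stood apart here too, since the deposited signals were 35, 44, 30 and 36 for miR-200a, miR-200b, miR-141 and miR-200c, against 2 to 7 on the other spleen arrays. miR-375 was bright on the same array. Without this array the differences from the mean were 0.916 for miR-141 and 0.727 for miR-200a, against 0.87 and 0.68 with it, and both were called.

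**Figure D3:**
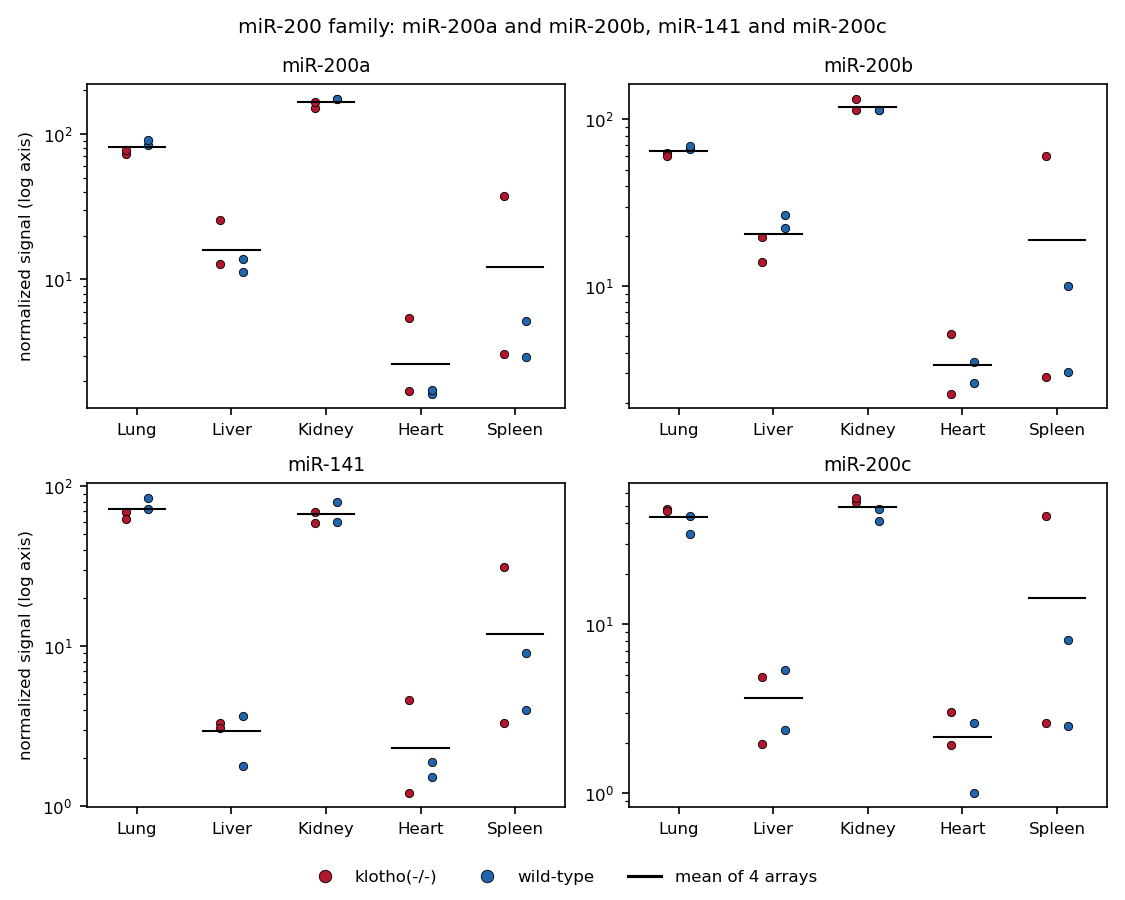
Normalized signal (log axis) of the 4 members of the miR-200 family on the 4 arrays of each tissue, with klotho(-/-) arrays in red, wild-type arrays in blue and the mean as a bar. For miR-200a and miR-200b the kidney arrays lie above the lung arrays, for miR-141 and miR-200c they overlap, and klotho(-/-) Spleen 1 lies apart from the other spleen arrays.

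Both arms of miR-199a, which is made in fibroblasts and other mesenchymal cells, were higher in lung than the mean, and lung and heart were close. miR-199a had a normalized signal of 108 and 96.7 on klotho(-/-) and 120 and 108 on wild-type lung arrays, against a lowest value of 15.7, a median of 37.6 and a highest value of 103 elsewhere. The differences were 0.72 ± 0.11 for miR-199a (SE, adjusted p = 4.29e-05) and 0.74 ± 0.16 for miR-199a* (SE, adjusted p = 0.00114). Both were above liver, kidney and spleen, and against heart the differences were 0.27 (adjusted p = 0.231) and 0.36 (adjusted p = 0.262). Without klotho(-/-) Spleen 1, both arms were called above each other tissue, as was miR-23b. The median of the fibroblast list was 0.729, and both members were higher under each scaling (against 19.5% of all probes with quantile normalization). miR-143 and miR-145 are made in smooth muscle, and neither passed the test, with differences of 0.17 and 0.31. Both were above liver and below spleen. With median scaling both were called higher, with a median of 0.453.

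The miRNAs of the clusters that hold miR-23, miR-27 and miR-24 are known from vessels and are made in many tissues. All 5 on the chip were higher in lung (against 19.5% of all probes), with a median of 0.577. All 5 were also higher with median scaling (0.795) and with no scaling (2.59). miR-23a was the member above each other tissue. Its deposited signal was 1801 and 1407 on klotho(-/-) and 1630 and 826 on wild-type lung arrays, against 25 to 562 elsewhere, and its difference was 0.79 ± 0.11 (SE, adjusted p = 2.78e-05). It lay only 0.44 above heart (adjusted p = 0.031), a call that was lost in 6 of the 20 fits that each left out 1 array, namely those without klotho(-/-) Lung 1, wild-type Lung 1 or 2, klotho(-/-) Heart 1 or 2 or wild-type Heart 2. miR-23b (0.63), miR-27a (0.58), miR-24 (0.53) and miR-27b (0.46) were above liver and spleen, and of these miR-27a was also above kidney. None of the 4 differed from heart by the test, with differences of -0.01 to 0.27. The hairpins of miR-23a, miR-27a and a copy of miR-24 lie in this order on chromosome 8, with gaps of 79 and 56 bases, and those of miR-23b, miR-27b and the other copy on chromosome 13, with gaps of 154 and 423 bases. miR-27a and miR-27b differ at 1 of 21 bases, so their probes cannot be read as independent.

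Among the 6 miRNAs with the seed AGCAGCA, which are known for restraining cell cycle genes, lung differed by member. miR-497 had a normalized signal of 96.7 and 103 on klotho(-/-) and 103 and 114 on wild-type lung arrays, against a lowest value of 14.2, a median of 41.8 and a highest value of 62.5 elsewhere. No other array reached the lung arrays, and the difference was 0.81 ± 0.049 (SE, adjusted p = 5.87e-10). Its neighbour miR-195, 241 bases away on chromosome 11, was above liver, kidney and heart by 0.54 to 0.89 and stood at -0.13 against spleen (adjusted p = 0.463). miR-424 was higher by 0.23, through liver and spleen. miR-15a, miR-15b and miR-16 were not called, and each was below spleen, by -0.68, -0.73 and -1.30. In normalized signal miR-15b had 72.2 and 120 on klotho(-/-) and 242 and 216 on wild-type spleen arrays, against 58.5 to 91.3 in lung. In the same order miR-15a had 151 and 231, then 369 and 414, against 140 to 165. miR-16 had 439 and 666, then 1640 and 1640, against 336 to 369. Of the 6 members 3 were higher (against 19.5% of all probes) and 0 lower (against 16.5%), with a median of 0.101. The number of higher members was also 3 with median scaling, and it was 6 with no scaling.

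miR-181a, which tunes signalling in developing lymphocytes and is made in many tissues, was above each other tissue. It had a normalized signal of 126 and 126 on klotho(-/-) and 159 and 151 on wild-type lung arrays, against a lowest value of 16.9, a median of 66 and a highest value of 91.3 elsewhere. The difference was 0.87 ± 0.076 (SE, adjusted p = 9.39e-08), from 0.60 against heart to 1.40 against liver. miR-181b, with the same seed and 3 of 23 bases different, was higher by 0.22 (adjusted p = 0.0389) and above liver only. That call was lost with median scaling, which left 1 of the 2 family members higher. The list median was 0.544.

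Markers of leukocytes were highest in spleen. miR-142-3p, found in all blood cell lineages, had a normalized signal of 44 and 34.5 on klotho(-/-) and 69.2 and 45.3 on wild-type lung arrays, against 203, 583, 866 and 866 on spleen arrays and at most 47 in the other tissues. Lung was below spleen by -2.63 (adjusted p = 3.62e-07) and 0.72 above kidney (adjusted p = 0.0474). miR-142-5p had 16 to 25.8 in lung, 84.1 to 499 in spleen and at most 13.3 in the other tissues. For it only the test against spleen passed. The pooled spread includes that of spleen, with a log2 SD of 0.88 for miR-142-5p, against 0.031 to 0.098 in the other tissues. miR-150 had 15.1 to 18.2 in lung and 19 to 32.9 in heart, and miR-155 had 1.93 to 3.15 and 2.27 to 8.73. None of the 4 leukocyte miRNAs, miR-142-3p, miR-142-5p, miR-150 and miR-155, was called against the mean, and their median was -0.298. With median scaling 2 of them were called lower and with no scaling 2 higher. The Traf6 and Irak1 repressors miR-146 and miR-146b, brakes on innate immunity, were higher in lung by 0.52 and 0.49, under each scaling. They were above liver, kidney and heart and stood at -0.16 (adjusted p = 0.144) and 0.07 (adjusted p = 0.552) against spleen. For miR-144, which marks red cell precursors, the difference was 0.16 and was not called. It was 0.71 in klotho(-/-) and -0.40 in wild-type mice, and the genotypes did not differ by limma (adjusted p = 0.316). Its normalized signal on spleen arrays was 16.9 and 12.1 in klotho(-/-) and 336 and 1000 in wild-type mice.

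The let-7 family, which holds cells in a differentiated state and is opposed by Lin28, divided in lung although its 8 members share the seed GAGGUAG. 4 were higher (against 19.5% of all probes), 1 was lower (against 16.5%) and 3 were not called, with a median of 0.445. The counts were 4 higher and 1 lower with median scaling and 8 higher with no scaling. let-7e was above each other tissue, with a normalized signal of 192 and 159 on klotho(-/-) and 216 and 231 on wild-type lung arrays, against a lowest value of 80, a median of 132 and a highest value of 184 elsewhere. Its difference was 0.51 ± 0.094 (SE, adjusted p = 0.000345), and klotho(-/-) Kidney 1, at 184, and wild-type Liver 2, at 165, overlapped the lung arrays. Its place above each other tissue was lost without klotho(-/-) Liver 1 or 2, klotho(-/-) Kidney 2, wild-type Lung 1 or 2, wild-type Liver 1 or wild-type Kidney 2. let-7i was higher by 0.59, above liver, kidney and heart and level with spleen (-0.10, adjusted p = 0.345). let-7c and let-7b were higher by 0.52 and 0.41. let-7g was lower by -0.40 ± 0.059 (SE, adjusted p = 3.69e-05). It had a normalized signal of 231 and 242 on klotho(-/-) and 259 and 259 on wild-type lung arrays. The liver, kidney and spleen arrays had 320 to 470 and did not overlap them, and the heart arrays had 184 to 231. In deposited signal let-7g had 437 to 877 on the lung arrays. The other arrays had 81 to 194 in liver, 313 to 613 in kidney, 270 to 318 in heart and 161 to 283 in spleen. let-7a and let-7e differ at 1 of 22 bases, and cross-hybridization within the family was not tested.

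Other families were given by their counts and medians. Of the miR-99, miR-100 and miR-125 families, 2 of 4 were higher (against 19.5% of all probes), with a median of 0.333. These were miR-125b, by 0.55, and miR-125a, by 0.54, and with median scaling 1 of 4 was higher. Of the miR-30 family 2 of 7 were higher, near the 19.5% of all probes (median 0.101), and all 7 differences were negative against kidney and positive against spleen, as for miR-30a-5p with -1.08 and 1.29. Neither member of the miR-26 pair (median 0.283) and none of the 3 of the miR-130 and miR-301 family (median 0.0356) was called. None of the 4 miRNAs of neurons and endocrine cells passed (median -0.0554), with summed deposited signals of 20 to 31 on the lung arrays. The 3 miRNAs of the miR-29 family, which repress collagen genes, were not called, with differences of -0.17, -0.21 and -0.19 and a median of -0.194. They were called lower with median scaling and higher with no scaling.

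By mean normalized level, of the 33 called lower, 15 were highest in liver, 8 in heart, 7 in spleen and 3 in kidney. Lung was below 1 of the other tissues for 17 of them, below 2 for 11 and below 3 for 5, and it was above at least 1 other tissue for 6. Normalized signal was lower on all 4 lung arrays than on all 16 others for 4 of 200 probes (2%), namely miR-409, miR-290, miR-210 and miR-378. In deposited signal there was none (0%). Liver arrays had 51 to 67 probes with a deposited signal of at least 10, and lung arrays had 113 to 116. Kidney arrays had 91 to 97, heart arrays 89 to 112 and spleen arrays 82 to 103. The part of this in the lower calls was not tested.

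miR-122a, the main miRNA of hepatocytes, and the pair miR-192 and miR-194, which mark liver, kidney and gut epithelium, were low in lung. miR-122a had a deposited signal of 9 and 7 on klotho(-/-) and 10 and 4 on wild-type lung arrays, against 4196, 3120, 1625 and 2125 on liver arrays. Its difference of -1.27 ± 0.041 (SE, adjusted p = 1.25e-13) came from liver, at -4.95, while against kidney, heart and spleen it was -0.01, -0.02 and -0.11. All 4 liver arrays had the top normalized value of 1640, so their SD was 0. The SE and the p-value thus hold none of the spread in liver brightness. miR-194 had a deposited signal of 28, 23, 25 and 10 on the lung arrays, against 103 to 216 on liver and 182 to 227 on kidney arrays. Its difference was -1.41 ± 0.18 (SE, adjusted p = 9.01e-06). It was -3.34 against liver and -2.01 against kidney. miR-192, whose hairpin lies 115 bases from a copy of miR-194 on chromosome 19, was -1.42 and -0.65 against the same tissues and -0.52 against the mean. Neither differed from heart or spleen by the test. Both members of this list were lower under each scaling (against 16.5% of all probes with quantile normalization), with a median of -0.966.

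The miRNAs of striated muscle had opposite signs against heart and against the other 3 tissues. miR-1, which drives muscle differentiation, had a deposited signal of 104 and 91 on klotho(-/-) and 235 and 65 on wild-type lung arrays, against 2827 to 3832 on heart arrays and 1 to 10 on the 12 arrays of liver, kidney and spleen. Lung was below heart by -4.10 (adjusted p = 2.05e-15) and above liver, kidney and spleen by 0.92, 0.83 and 0.90. miR-133a and miR-133b, made with miR-1 and miR-206, and miR-208, made from a cardiac myosin gene, followed, with -3.68, -3.57 and -3.13 against heart and 0.27 to 0.64 against the rest. On every heart array miR-1, miR-133a and miR-133b had the same normalized value (1640, 1000 and 866), so their SD there was 0. Their tests against heart hold none of the spread in heart brightness. In deposited signal miR-1, miR-133a and miR-133b were brighter on wild-type Lung 1 (235, 160 and 137) than on the other lung arrays (at most 104, 89 and 79). Without this array miR-133a and miR-133b were still called lower. miR-206, a miRNA of skeletal muscle, was at 2 to 6 on the lung arrays and was not called, with a difference of 0.021. Of the 5, 4 were lower than the mean (against 16.5% of all probes), with a median of -0.489, and 1 was lower with no scaling. With heart left out of the mean, miR-133a, miR-133b and miR-208 were higher in lung, by 0.576, 0.464 and 0.306.

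miR-296, from the imprinted Gnas region, had a normalized signal of 39.4 and 42.7 on klotho(-/-) and 23 and 31.4 on wild-type lung arrays, against a lowest value of 39.4, a median of 82.1 and a highest value of 414 elsewhere. Its difference was -1.08 ± 0.23 (SE, adjusted p = 0.00141), with -2.17 against spleen and -1.43 against liver. The liver arrays were spread widely, at 352, 80, 296 and 91.3. In deposited signal the lung arrays had 124 and 122 in klotho(-/-) and 67 and 45 in wild-type mice. The other arrays had 25 to 131 in liver, 36 to 120 in kidney, 38 to 94 in heart and 164 to 241 in spleen. With no scaling between arrays the difference of miR-296 was slightly positive. miR-409, from the imprinted Dlk1 and Dio3 region, had a normalized signal of 15.7, 16.9, 9.97 and 17.5 on the lung arrays. All were below the 18.2 of the lowest other array, and the difference was -0.83 ± 0.21 (SE, adjusted p = 0.00444). Its deposited signal was 22 to 42 in lung and 12 to 104 in liver. It was 16 to 47 in kidney, 15 to 38 in heart and 71 to 149 in spleen. miR-290, the first of a cluster known from embryonic stem cells, had a difference of -0.54. Its normalized signal was 9.53 to 15.1 on the lung arrays and 19 to 165 elsewhere, and lung passed the test against liver only. In deposited signal miR-290 had 15 to 45 in lung and 13 to 79 in liver. It had 19 to 27 in kidney, 18 to 38 in heart and 17 to 50 in spleen. klotho(-/-) Liver 1 was the brightest liver array for miR-296, miR-409 and miR-290, at 131, 104 and 79. Of the 10 miRNAs of the miR-290 cluster 4 were lower (against 16.5% of all probes) and 0 higher (against 19.5%), with a median of -0.122, and none was called with no scaling.

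miR-22, which is made in many tissues, lay between the other tissues. It had a normalized signal of 296 and 296 on klotho(-/-) and 307 and 273 on wild-type lung arrays, against 1000 on each liver array, 439 to 866 on kidney, 583 to 666 on heart and 151 to 231 on spleen arrays. The lung arrays overlapped none of these groups. Lung was below liver by -1.61, heart by -1.02 and kidney by -0.85 and above spleen by 0.53, each past the threshold. The difference from the mean was -0.74 ± 0.12 (SE, adjusted p = 9.33e-05), and it was positive with no scaling. In deposited signal the lung arrays had 467 to 1233, against 228 to 478 on liver, 570 to 660 on kidney, 690 to 1151 on heart and 80 to 198 on spleen arrays. miR-101a and miR-101b, which repress the histone methyltransferase Ezh2, were lower by -0.38 and -0.58 (median -0.482). For miR-101b this came from liver, at -2.40, and the differences from kidney, heart and spleen were -0.01 to 0.05. Both were lower with median scaling, and both were higher with no scaling.

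The miRNAs of the miR-17 cluster and of its copies elsewhere in the genome promote proliferation in many cell types, and 5 of 11 were lower in lung (against 16.5% of all probes) and 0 higher (against 19.5%), with a median of -0.317. With median scaling 7 were lower, and with no scaling 10 were higher. miR-20a was lower by -0.55 (adjusted p = 0.00555), miR-19b by -0.44 (adjusted p = 0.000531) and miR-20b by -0.42 (adjusted p = 0.0165). miR-20a and miR-19b were below spleen, by -1.29 and -0.83, and below liver, by -0.51 and -0.64, and against heart they stood at -0.10 and -0.02. Without wild-type Lung 1 or without wild-type Lung 2 the call for miR-20b was lost. miR-10b was the member of its pair on the chip. It was lower by -0.25, from kidney at -1.17, and was not called with no scaling.

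Of the miRNAs below 3 other tissues, miR-210, which is induced by low oxygen, came nearest to the low end of the order after normalization. It had 9.97 and 9.35 on klotho(-/-) and 9.35 and 11.5 on wild-type lung arrays in normalized signal, against 13.9 to 31.4 elsewhere. In normalized signal no array overlapped. The differences were -0.29 against liver, -0.28 against heart, -0.24 against spleen and -0.21 against kidney, the last with an adjusted p of 0.0606. In deposited signal miR-210 was not low in lung, at 18 to 25. The other arrays had 3 to 8 in liver, 13 to 24 in kidney, 17 to 28 in heart and 9 to 29 in spleen. miR-378, from an intron of Ppargc1b, had 2.69 to 3.7 in lung, against 3.82 to 51.3 elsewhere, and was furthest from heart, at -0.84. Its lung values were near the floor, with a deposited signal of 4 to 5, against 2 to 4 on liver and 3 to 14 on spleen arrays. miR-185 was below liver, kidney and heart by -0.35 to -0.52 and stood at -0.10 against spleen. Its deposited signal was 22 to 41 on the lung arrays. It was 5 to 16 on liver, 24 to 35 on kidney, 28 to 40 on heart and 9 to 19 on spleen arrays.

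**Figure D4:**
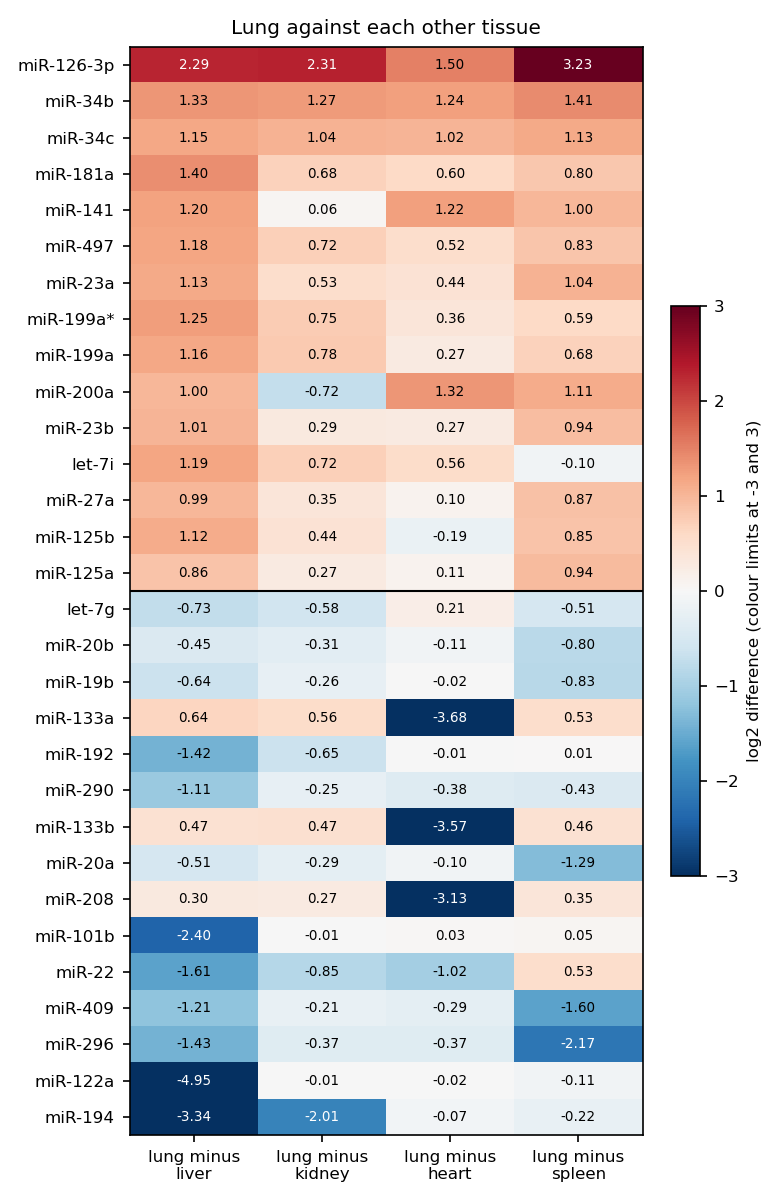
Log2 differences of lung minus liver, kidney, heart and spleen for the 15 miRNAs with the largest rise and the 15 with the largest fall in lung against the mean of the 4 tissues, with colours limited at -3 and 3. miR-126-3p, miR-34b and miR-34c are positive in every column, whereas several of the lower miRNAs are far from 0 in 1 or 2 columns, such as miR-122a with -4.95 against liver and miR-133a with -3.68 against heart.

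By the number of calls, lung differed most from liver and spleen. Against liver 49 probes were higher (24.5%) and 47 lower (23.5%), and against spleen 50 were higher (25%) and 37 lower (18.5%). Against kidney 26 were higher (13%) and 25 lower (12.5%), and against heart 29 were higher (14.5%) and 14 lower (7%). Over the 200 mean log2 levels, Pearson's r of lung was 0.934 with kidney, 0.834 with heart, 0.829 with spleen and 0.786 with liver. The points share the arrays and a common set of values after scaling, so these are descriptions. Against heart 6 miRNAs were higher and 5 lower by over 1 on the log2 scale, against 3 and 3 for kidney.

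The third comparison asked whether the lung profile differed between the genotypes, as lung minus the mean of the other tissues in klotho(-/-) minus the same in wild-type mice. Of 200 probes 1 passed (0.5%), and 15 had an unadjusted p under 0.05. It was miR-19b, a member of the miR-17 cluster, whose lung difference was -0.20 in klotho(-/-) and -0.67 in wild-type mice, so that the genotypes differed by 0.476 (adjusted p = 0.0432). Its normalized signal was 84.1 and 80 on klotho(-/-) and 60.1 and 48.2 on wild-type lung arrays, and 126 and 140 on klotho(-/-) and 173 and 203 on wild-type spleen arrays, so lung and spleen moved in opposite directions. With median scaling and with the replicate block no probe passed. The count was 6 without klotho(-/-) Spleen 1, 9 without klotho(-/-) Spleen 2, 3 without wild-type Spleen 1, 2 without klotho(-/-) Lung 1 or wild-type Liver 2, and 0 or 1 in each other fit with 1 array left out. miR-126-3p differed from the other tissues by 2.74 in klotho(-/-) and 1.93 in wild-type mice, which did not pass (adjusted p = 0.162). miR-15b and miR-106b, the next by p, had 0.26 and 0.01 in klotho(-/-) and -0.31 and -0.43 in wild-type mice, with an adjusted p of 0.17 each.

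**Figure D5:**
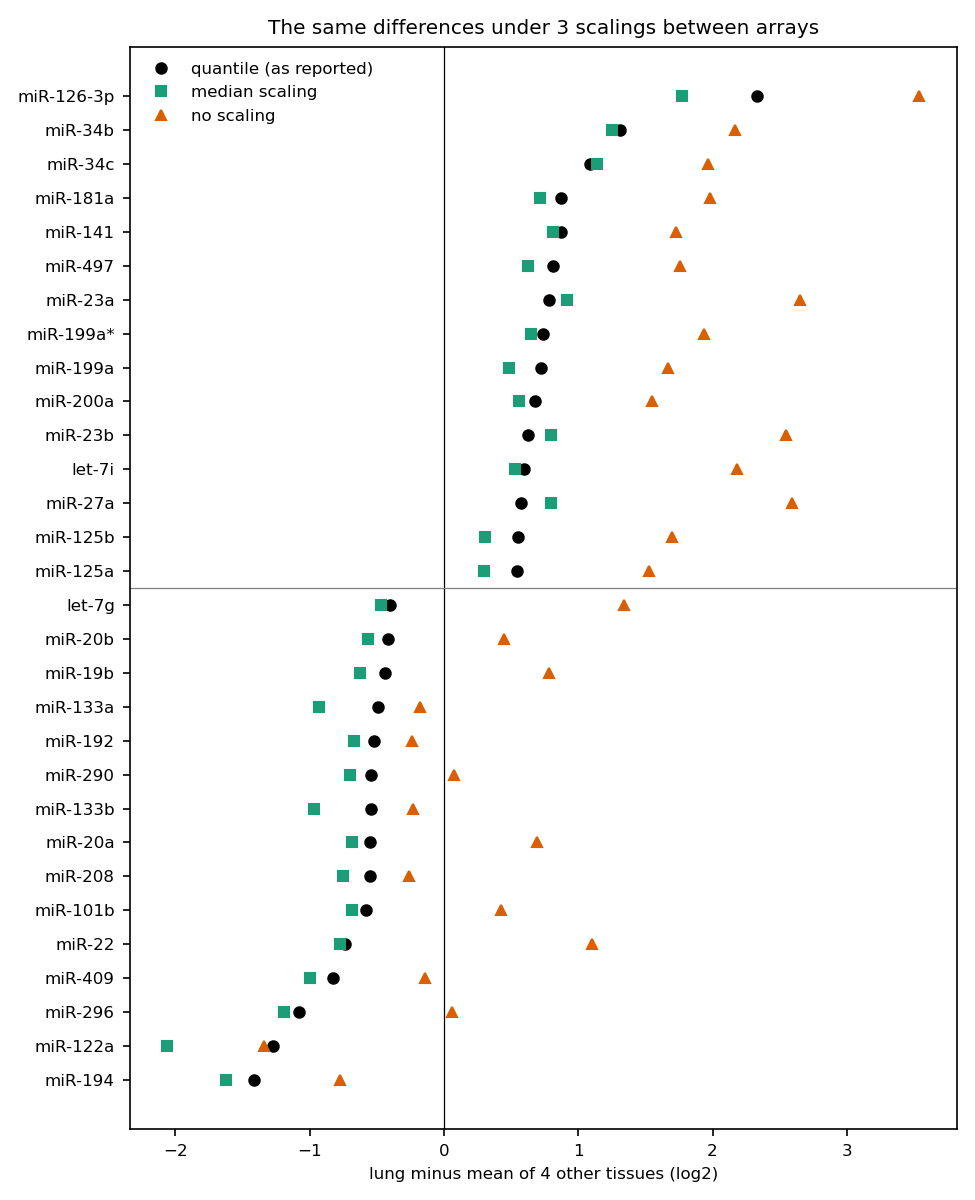
The differences of lung minus the mean of the 4 other tissues (log2) for the same 30 miRNAs after quantile normalization, median scaling and no scaling between arrays. The 15 higher miRNAs are positive under each of them, and among the lower ones let-7g is at 1.34 and miR-22 at 1.10 with no scaling.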

How the data were processed

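The authors hybridized DY-647-labelled small RNA to the DNA chip and deposited 2 tables of fluorescence intensity for 200 probes and 20 arrays. In the first, the background was included. The second holds the intensity less a constant for each array, as whole numbers with a floor of 1 to 3, and the authors had not scaled it between arrays. Scanner settings are not given in the sources used here, and the number of arrays limits the precision.

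From the first table the background was corrected with normexp (offset 50) in limma 3.58.1 under R 4.3.3, and all 20 arrays were quantile-normalized and taken to log2. Normalized signals in the text have the offset removed. Values tied in rank after normalization are equal. A probe of the same rank on all arrays of a tissue has an SD of 0 there. Its SE and p-value then hold none of the spread in brightness within that tissue. Lung was compared with the mean of the other tissues, and with each of them, in one model of tissue and genotype with 14 residual degrees of freedom (lmFit, contrasts, eBayes with trend). The genotype difference used a model of 10 groups. Tests were two-sided and adjusted by Benjamini-Hochberg over the 200 probes, with a threshold of 0.05. The steps were tested on simulated data. Alternatives were other scalings, the second table, an offset of 16, a minimum mean signal of 10, other models, the mouse as a fixed or random block, each genotype alone, each other tissue left out, the methods' t-test and each array left out. Leaving out both klotho(-/-) Spleen arrays was chosen after seeing the data.

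The text names up to 15 called miRNAs furthest above and 15 furthest below the other tissues, those above or below each other tissue, up to 5 by p for the genotype difference, and list members. miR-185, miR-210 and miR-378 were named after their values were seen. The lists (endothelium, multiciliated cells, epithelium, fibroblasts, smooth muscle, leukocytes, innate immunity, red cell precursors, hepatocytes, kidney and gut epithelium, striated muscle, neurons and endocrine cells, and miRNA families and clusters) and the comparison itself were chosen with earlier results of these data known. Names on the chip were matched by hand to RefSeq mature names, and 46 of 51 names looked up had a sequence. Probe sequences were not used here, so the arm that each probe reads was taken from its name or from the match and was not checked.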

Additional observations from a re-analysis of the deposited data

Results flagged for a closer look

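Among the named miRNAs, 3 had a lung array whose gap to the nearest lung array was most of the range of the 4. Chance gives such a gap in about 1 in 20 groups of 4, a rate that does not hold for tied values. Some such gaps can come by chance among the named miRNAs. miR-27a had a normalized signal of 583 on klotho(-/-) Lung 2, and the other lung arrays were at 470. miR-125a had 87.8 on wild-type Lung 2, and the nearest lung array was at 114. miR-199a* had 140 on wild-type Lung 1, and the others were at 132. Equal values here come from quantile normalization, which gives probes of one rank the same value, so a gap can be a step of 1 rank.

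miR-19b was the probe whose difference of lung from the other tissues differed between the genotypes by the test of that difference. It was 0.476 higher in klotho(-/-) than in wild-type mice on the log2 scale (adjusted p = 0.0432 by limma), and the call was not made with median scaling or with the replicate block.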

How the results depend on the processing

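With no scaling between arrays 108 miRNAs were higher, 7 lower, 52 higher by over 1, 1 lower by over 1 and 66 above each other tissue, and let-7g (1.34), miR-15b (1.12), miR-22 (1.10), miR-106b (0.862), miR-19b (0.781), miR-20a (0.69), miR-20b (0.447), miR-101b (0.425), miR-290 (0.0735) and miR-296 (0.0615) turned positive. The lung arrays also had the highest summed signals, with an overlap with heart, and the part of this in the counts was not tested. With the offset of 16, 10 were higher by over 1. With klotho(-/-) arrays alone, which are fewer, 21 were higher and 15 lower, and miR-106b (0.013) and miR-15b (0.26) turned positive. With the 16 arrays as 1 class 10 were higher, 0 lower and 0 lower by over 1. By the methods' t-test 31 were higher and 10 lower, 1 of them by over 1, at an unadjusted p under 0.05, and 11, 2 and 0 after Benjamini-Hochberg. Without liver 0 were lower by over 1 and miR-101b was 0.0238. Without kidney 5 were higher by over 1. Without heart miR-133a was 0.576, miR-133b 0.464 and miR-208 0.306. Without spleen miR-15b was 0.209. miRNAs below each other tissue numbered 2 with median scaling and without both klotho(-/-) Spleen arrays, and 1 with the offset of 16, with the signal minimum of 10 and with the replicate block.

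With 1 array left out, 31 to 44 were higher, 25 to 43 lower, 6 to 12 above and 0 to 1 below each other tissue, 0 to 9 differed by genotype, and miR-15b ran from -0.141 to 0.0688. Of the 35 miRNAs named by their difference, their place above each other tissue or the genotype p, the others kept their direction in these fits. For the genotype difference the count was 0 with median scaling and with the replicate block.

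The replicate block treats arrays of one number and genotype as 1 mouse. It called 40 higher and 35 lower, of which 39 and 31 were shared with the reported calls. Deviations of same-numbered lung and other arrays correlated at -0.0746 to 0.462. Each group held too few arrays for these values to decide whether same-numbered arrays came from the same mouse. The study's legend numbers the mice but does not state whether a number stands for the same mouse in each tissue. The reported model treated the arrays as independent. Medium and dim probes are limited by the floor, and differences there understate the ratio of signals.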
